A study of Homo sapiens with 6 samples.

Results

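The genes described here are 38 named neighbours of SOX2 on the long arm of human chromosome 3, from MECOM on the centromeric side to LPP on the telomeric side. They were chosen by name, as genes of the 3q26 to q28 stretch that is amplified in squamous lung cancer, with SOX2 itself left out. They are 38 of the 61552 genes in the files, and 37 of them were among the 15063 genes with enough counts to be tested. In GENCODE 29 (GRCh38) all lie on chromosome 3, and from the start of MECOM at 169083499 to the end of LPP at 188890671 they span 19.8 Mb. Relative to the start of SOX2, MECOM starts at -12.63 Mb and LPP at 6.44 Mb.

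Gain of this chromosome arm is a frequent copy number change in squamous carcinomas of the lung, and SOX2, PIK3CA, PRKCI and TP63 are among the genes it can carry. Such a gain raises the dose of many adjacent genes at once, whatever their function. The neighbours of SOX2 accordingly code for proteins as different as kinases, chromatin proteins, translation factors and mitochondrial enzymes. Copy number was not measured here, so a level below is a level of RNA and no statement on gene dose.

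The cells were NCI-H520, an established line from a human lung squamous cell carcinoma, labelled as wild type, and their RNA was sequenced. In the treated group, 3 libraries came from cells given 2 µM cisplatin for 48 h, a platinum compound whose adducts crosslink DNA strands. In the control group, 3 libraries came from cells given phosphate-buffered saline (PBS) for 48 h. Both groups grew in the same serum-containing medium, and the comparison asks how RNA levels in these cells differ after the drug.

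Counts assigned to genes ranged over 9925328 to 16724285 per cisplatin library and 9121180 to 15589897 per PBS library. Nothing in the labels states that replicates came from separate cultures. A p-value here therefore reflects the spread among these libraries alone, and that spread may be technical. Since whole cultures were sequenced, fewer cells making an RNA and less RNA per cell cannot be told apart. SOX2 itself stood at 145, 148 and 162 TPM (transcript abundance scaled by length and to a fixed total per library) with cisplatin and at 135, 151 and 182 TPM with PBS. Its groups overlapped, and its log2 fold change was 0.06 ± 0.08 (SE; adjusted p = 0.583 in edgeR). The 8 squamous markers together, SOX2 included, summed to 165 to 180 TPM with cisplatin and 160 to 192 TPM with PBS, most of it SOX2. TRIM29, another squamous marker, stood at 15.7, 12.9 and 13.3 TPM with cisplatin and 6.63, 5.70 and 5.09 TPM with PBS, a 2.45-fold increase (adjusted p = 3.5e-05, edgeR). KRT6A took 36.3 TPM of the sum in PBS library 1, where its estimated transcript length was 275 bases, against 0.95 to 1.47 TPM in the cisplatin libraries and 1.0 and 1.16 TPM in the other PBS libraries. TP63, KRT14, PKP1 and DSG3, which usually define squamous cells, were under 1 TPM in every library, and DSG3 was at 0 in all. The 4 lung adenocarcinoma markers summed to 3.76 to 4.0 TPM with cisplatin and 1.80 to 2.94 TPM with PBS. Most of that sum was NKX2-1, which rose 1.76-fold (adjusted p = 0.00218, edgeR). The 5 neuroendocrine markers summed to 3.86 to 4.22 TPM with cisplatin and 4.33 to 6.54 TPM with PBS. Fibroblast and endothelial markers reached at most 1.20 TPM in sum with cisplatin and 0.32 TPM with PBS. The 4 immune markers summed to 2.91 to 3.70 TPM with cisplatin and 0.61 to 1.18 TPM with PBS, while the leukocyte genes PTPRC and CD3E were at 0. LYZ made up most of this immune sum and rose 3.59-fold (adjusted p = 2.6e-04, edgeR). CD68, the remaining immune marker, reached at most 0.18 TPM, so the higher sum reflects LYZ and not the immune markers as a group. The part of these marker differences in the results below was not tested.

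Promoter sequences are shown for EPHB3, the gene with the largest increase, for PHC3 and ZNF639, those with the largest decreases, and for the short stretch that CLCN2 and POLR2H share, since the values below turn on these genes. BCL6 is not shown because its window lies within an annotated exon. They are bases upstream of the RefSeq starts (GRCh38.p14), read 5′ to 3′ on the strand of the gene, and they were trimmed where a GENCODE exon begins. Capitals mark the GC box, GGGCGG, on either strand. They also mark the CCAAT box on either strand and the palindromic E box, whose letters are CACGTG. EPHB3 is chr3:184561535-184561783 on the plus strand, PHC3 is chr3:170181750-170181983 on the minus strand, ZNF639 is chr3:179322626-179322875 on the plus strand, and the CLCN2-POLR2H stretch is chr3:184361652-184361709 on the plus strand.
EPHB3: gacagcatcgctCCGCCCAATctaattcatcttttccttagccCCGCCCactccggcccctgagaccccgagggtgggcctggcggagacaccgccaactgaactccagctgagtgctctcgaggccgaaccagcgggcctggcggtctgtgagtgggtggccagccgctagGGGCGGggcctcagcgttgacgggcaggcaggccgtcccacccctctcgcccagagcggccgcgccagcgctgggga
PHC3: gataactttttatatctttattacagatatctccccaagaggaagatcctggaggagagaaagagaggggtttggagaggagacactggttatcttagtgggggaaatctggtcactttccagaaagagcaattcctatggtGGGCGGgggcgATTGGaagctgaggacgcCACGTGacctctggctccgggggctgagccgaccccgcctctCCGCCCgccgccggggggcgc
ZNF639: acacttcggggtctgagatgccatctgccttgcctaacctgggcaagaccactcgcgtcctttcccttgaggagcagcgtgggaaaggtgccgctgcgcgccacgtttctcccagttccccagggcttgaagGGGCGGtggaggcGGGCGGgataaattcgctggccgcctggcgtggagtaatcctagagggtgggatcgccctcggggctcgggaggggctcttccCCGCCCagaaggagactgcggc
CLCN2-POLR2H: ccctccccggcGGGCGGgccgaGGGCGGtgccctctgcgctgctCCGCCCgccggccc

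The EPHB3 stretch held 3 GC boxes, 1 of which overlaps its CCAAT box, and the PHC3 stretch held 2 GC boxes, a CCAAT box and an E box. The ZNF639 stretch held 3 GC boxes, as did the stretch between the CLCN2 and POLR2H starts, which lie 105 bases apart on opposite strands. RefSeq promoters were matched for 34 of the 38 genes, and ACTL6A, ATP11B, LAMP3 and SENP2 had no entry. Over the 250 upstream bases, 25 of these 34 promoters (73.5%) held a GC box on either strand, against 42.3% of all 27305 promoters. A CCAAT box stood in 10 of the 34 (29.4%, against 33.0% of all promoters) and an E box in 3 (8.82%, against 6.49%). The SOX core (ACAAAG, with ACAATG counted too) stood in 6 of the 34 (17.6%, against 21.4%), and the cyclic AMP response element (TGACGTCA) in 2 (5.88%, against 1.77%). The 27305 promoters were not limited to protein-coding or tested genes, whereas the listed genes are all protein-coding, so the shares compare unlike sets. These matches describe letters in a window and were not tested as sites.

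The baseline level was read per length, as TPM in the PBS libraries. The median of the 38 genes was 28.5 TPM, against 13.9 TPM over all tested protein-coding genes, and 26 of the 38 stood above that value. The level exceeded 100 TPM for 11 genes, lay between 20 and 100 TPM for 12, between 5 and 20 TPM for 9, and under 5 TPM for 6. The 5 most abundant genes held 51.9% of the summed TPM of the 38. Leading them was AP2M1, the medium subunit of the clathrin adaptor that takes up membrane receptors. It stood at 513, 495 and 452 TPM with cisplatin and 493, 423 and 533 TPM with PBS, so the groups overlapped, and 98.1% of tested protein-coding genes had a lower PBS level. EIF4G1, FXR1, POLR2H and TRA2B followed with PBS means of 300 ± 43.4, 252 ± 30.6, 230 ± 16.4 and 219 ± 17.1 TPM (SD, n = 3 each). FXR1 and POLR2H, and likewise POLR2H and TRA2B, differed by less than their spread. Then came ALG3 at 162 ± 20.9, PARL at 145 ± 2.39, EIF2B5 at 134 ± 10.5, TBL1XR1 at 118 ± 5.76, ACTL6A at 117 ± 17 and DVL3 at 114 ± 13.2 TPM (SD, n = 3 each). Of these, ALG3 and PARL differed by less than their spread, as did TBL1XR1, ACTL6A and DVL3.

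At the low end, MECOM, a zinc finger transcription factor and the outermost gene on the centromeric side, was almost silent. It had 1, 2 and 4 counts with cisplatin and 1, 4 and 1 counts with PBS, and was not tested. This is 0.03, 0.04 and 0.18 TPM with cisplatin and 0.04, 0.27 and 0.03 TPM with PBS. LAMP3, a lysosomal membrane protein, stood at 0.36, 0.35 and 0.32 TPM with cisplatin and 0.45, 0.51 and 0.59 TPM with PBS. GNB4, a G protein beta subunit, averaged 1.27 ± 0.201 TPM with cisplatin and 1.51 ± 0.368 TPM with PBS (SD, n = 3 each). Beyond LPP, TP63 was also near zero, at 0.11, 0.18 and 0.13 TPM with cisplatin and 0, 0.15 and 0.02 TPM with PBS. Mean PBS levels of the 38 genes thus ran from 483 TPM for AP2M1 to 0.113 TPM for MECOM.

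**Figure D1:**
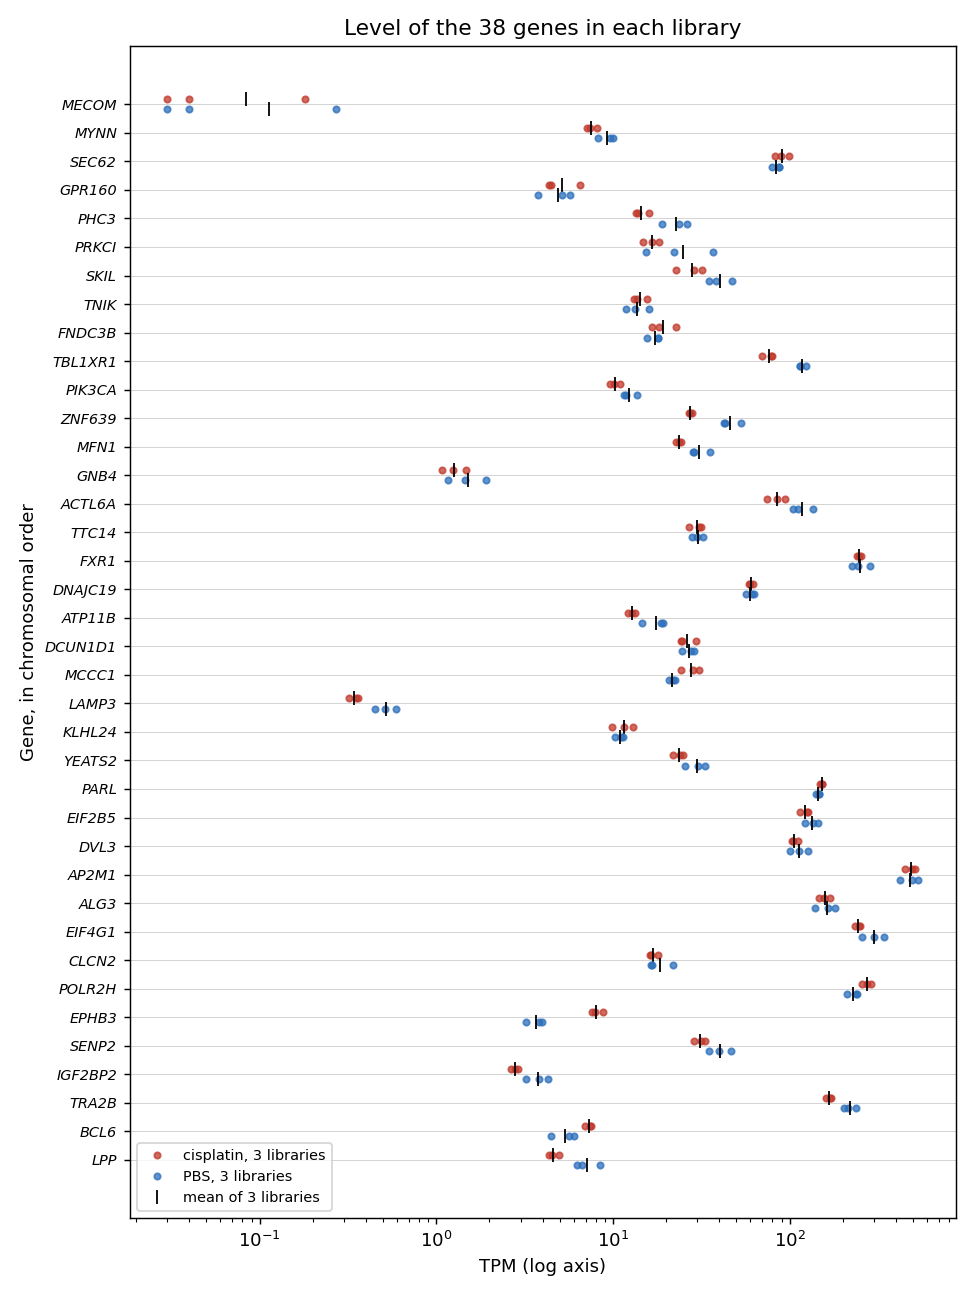
Level of each of the 38 genes in chromosomal order, in TPM on a log axis, with the 3 cisplatin and the 3 PBS libraries as points and the mean of each group as a tick. PBS means run from 0.113 TPM for MECOM to 483 TPM for AP2M1, and for most genes the groups lie close together beside the distance between genes.

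Tested genes of the same interval outside the list, 43 of them protein-coding, had a median PBS level of 18.3 TPM. The protein-coding genes of the rest of chromosome 3 had a median of 12.2 TPM and those of other chromosomes 14.0 TPM. In windows along the chromosome the median PBS level was 13.8 TPM from 20 to 10 Mb before SOX2 (17 genes), 24.2 TPM over the last 10 Mb before it (20 genes), 27.1 TPM over the first 10 Mb from SOX2 onward (51 genes) and 36.9 TPM from 10 to 20 Mb beyond it (38 genes). Further from SOX2 the window medians lay between 9.41 and 15.0 TPM. The list was picked by name from known genes, and these medians are descriptions that were not tested.

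After cisplatin, 5 of the 37 tested genes rose, 10 fell and 22 did not pass (edgeR quasi-likelihood test, adjusted p under 0.05 over all genes). The 15 that changed are 40.5% of the 37, close to the 38.2% called over all 15063 genes. Over all genes 18.9% rose and 19.3% fell, against 13.5% and 27% of the list. CPM (counts scaled by library size) of the groups did not overlap for 18 of the 37 genes, namely the 15 called ones and MYNN, MFN1 and YEATS2, against 49.7% of all genes tested. The changes were small. Only EPHB3 and BCL6 were both called and changed at least 1.5-fold (5.41% of the list, against 15.0% of all genes), and the median size of the change was 0.19 on the log2 scale, against 0.27 for all genes. The median log2 fold change was -0.03, against -0.00 for all genes. Summed over the 38 genes, the level was 2670, 2650 and 2600 TPM with cisplatin and 2810, 2690 and 3080 TPM with PBS, a ratio of 0.922, and the highest cisplatin library was below the lowest PBS library. The ratio was 0.886 for TPM over protein-coding nuclear genes, 0.974 for CPM per kilobase, and 0.896 to 0.96 with a library left out. TPM was also lower across the data set, where the median of all tested protein-coding genes was 12.7 TPM with cisplatin and 13.9 TPM with PBS. For the tested listed genes these medians were 26.1 and 29.9 TPM, so a lower TPM was not particular to the list. Mitochondrially encoded genes took 3.26% to 4.13% of the counts with cisplatin and 4.15% to 6.05% with PBS, and the part of this in the summed level was not tested.

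**Figure D2:**
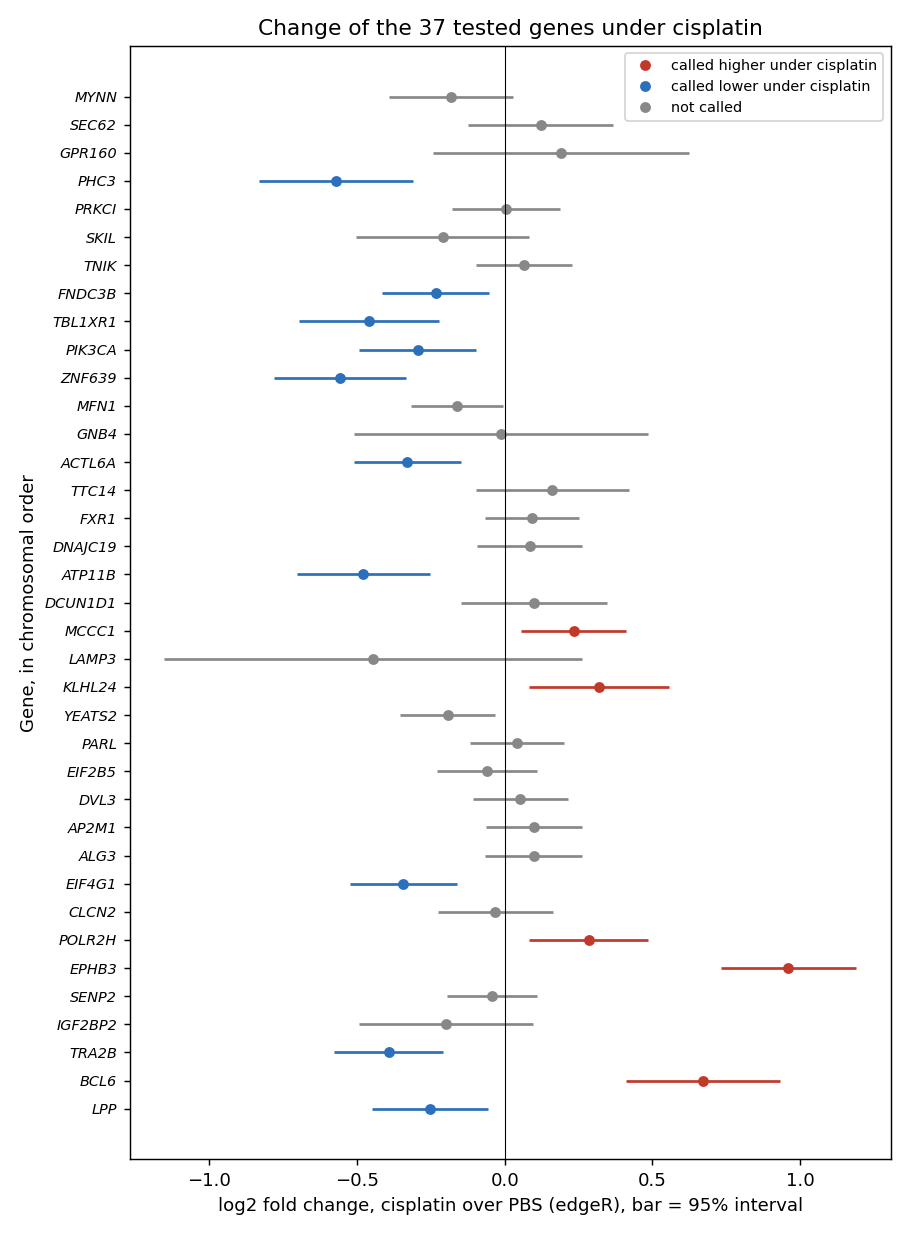
Log2 fold change of cisplatin over PBS for the 37 tested genes in chromosomal order, with 95% intervals as bars and colour for the call (red higher, blue lower, grey not called). EPHB3 at 0.96 and BCL6 at 0.67 lie furthest to the right, PHC3 at -0.57 and ZNF639 at -0.56 furthest to the left, and most genes lie near 0.

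Of 9 tested transcription and chromatin genes, 2 rose, 4 fell and 3 did not pass, with a median change of -0.21 on the log2 scale. The called share was 66.7% in this role and 25.0% to 37.5% in the roles that follow, against 38.2% of all tested genes. Each role holds few genes, and differences between roles were not tested. The genes that fell act in repression complexes, chromatin remodelling and zinc finger transcription, while the genes that rose were a repressor and an RNA polymerase subunit. PHC3, a subunit of Polycomb repressive complex 1 (its promoter stretch is shown above), stood at 13.9, 15.9 and 13.5 TPM with cisplatin and 26.2, 23.6 and 18.9 TPM with PBS. All cisplatin values lay below all PBS values. It averaged 61.7 ± 2.74 CPM with cisplatin and 91.5 ± 18.4 CPM with PBS (SD, n = 3 each), a log2 fold change of -0.57 ± 0.12 (SE; adjusted p = 0.00298 in edgeR).

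ZNF639, a zinc finger protein encoded near PIK3CA, stood at 27.1, 27.9 and 27.3 TPM with cisplatin and 42.5, 43.1 and 53.0 TPM with PBS. The groups were well separated, and the cisplatin libraries hardly differed from each other. The log2 fold change was -0.56 ± 0.10 (SE; adjusted p = 0.00138 in edgeR). TBL1XR1, a core component of the NCOR corepressor complexes, stood at 79.6, 70.2 and 78.3 TPM with cisplatin and 115, 124 and 114 TPM with PBS, again with no overlap. It averaged 279 ± 15.3 CPM with cisplatin and 384 ± 70.2 CPM with PBS (SD, n = 3 each), and fell by 0.46 ± 0.11 on the log2 scale (SE; adjusted p = 0.00611 in edgeR). ACTL6A, an actin-related subunit of the BAF and INO80 chromatin remodelling complexes, stood at 94.0, 84.7 and 74.6 TPM with cisplatin and 111, 104 and 136 TPM with PBS. Its groups did not overlap, and the log2 fold change was -0.33 ± 0.08 (SE; adjusted p = 0.00843 in edgeR).

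BCL6, a transcriptional repressor best known from germinal centre B cells, rose. It stood at 7.45, 6.94 and 7.55 TPM with cisplatin and 5.62, 4.46 and 6.01 TPM with PBS, with no overlap. In CPM it averaged 18.2 ± 0.646 with cisplatin and 11.4 ± 1.38 with PBS (SD, n = 3 each), a 1.59-fold increase with a 95% interval of 1.33 to 1.91 (adjusted p = 0.00114, edgeR). On log2 TPM with limma it no longer passed, and over the 15 alternative settings the adjusted p ran from 1.4e-05 to 0.102.

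POLR2H, a subunit shared by the RNA polymerases, stood at 256, 290 and 273 TPM with cisplatin and 242, 237 and 211 TPM with PBS. All cisplatin values lay above all PBS values, and the log2 fold change was 0.28 ± 0.09 (SE; adjusted p = 0.0289 in edgeR). This call was lost without cisplatin library 2 (adjusted p = 0.0813, edgeR), cisplatin library 3 (0.0768) or PBS library 3 (0.0845), and its range over the settings was 0.00625 to 0.474. With transcript length as an offset its log2 fold change was 0.07 and the edgeR adjusted p was 0.474. CLCN2, a chloride channel whose start lies 105 bases from that of POLR2H, had a log2 fold change of -0.03 ± 0.09 (SE; adjusted p = 0.799 in edgeR). It shares 24.7% of its exonic bases with FAM131A on the opposite strand, so its counts are uncertain.

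SKIL, the SnoN repressor of TGF-beta signalling, stood at 28.8, 22.9 and 32.0 TPM with cisplatin and 35.2, 38.2 and 47.3 TPM with PBS. In TPM the groups did not overlap, but in CPM they did, with means of 82.1 ± 10.5 for cisplatin and 94.7 ± 20.3 for PBS (SD, n = 3 each). Its log2 fold change was -0.21 ± 0.13 (SE; adjusted p = 0.231 in edgeR), and limma on log2(TPM + 1) gave an adjusted p of 0.0435, with a range over the settings of 0.0435 to 0.905. Its estimated transcript length averaged 3451 bases with cisplatin and 2923 bases with PBS. MYNN, a zinc finger protein, and YEATS2, a histone reader of the ATAC acetyltransferase complex, had log2 fold changes of -0.18 and -0.19 and did not pass (adjusted p = 0.157 and 0.056, edgeR). MYNN shares 13.9% of its exonic bases with an unnamed gene and YEATS2 shares 11.4% with YEATS2-AS1, so both are uncertain. YEATS2 passed without PBS library 2 (adjusted p = 0.0239, edgeR, over all settings 0.0239 to 0.746).

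Signalling genes numbered 7, of which 1 rose, 1 fell and 5 did not pass, with a median log2 fold change of 0.05. EPHB3, a receptor tyrosine kinase for ephrin-B ligands (promoter stretch above), had the largest change of the 37. It stood at 7.58, 8.75 and 7.88 TPM with cisplatin and 3.20, 3.83 and 3.95 TPM with PBS. The lowest cisplatin library lay far above the highest PBS library. In CPM it averaged 23.4 ± 0.989 with cisplatin and 12.1 ± 0.664 with PBS (SD, n = 3 each), a 1.94-fold increase with a 95% interval of 1.66 to 2.28 (adjusted p = 4.8e-05, edgeR). Over the 15 alternative settings the log2 fold change stayed between 0.92 and 1.12, and the adjusted p was at most 0.00494.

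PIK3CA, the catalytic p110alpha subunit of PI 3-kinase, fell slightly. It stood at 10.9, 10.2 and 9.67 TPM with cisplatin and 11.5, 11.8 and 13.7 TPM with PBS, with no overlap. In CPM it averaged 33.5 ± 0.963 with cisplatin and 41.0 ± 3.84 with PBS (SD, n = 3 each), a log2 fold change of -0.29 ± 0.09 (SE; adjusted p = 0.0236 in edgeR). The call was lost without cisplatin library 1 (adjusted p = 0.0797, edgeR), cisplatin library 3 (0.0713) or PBS library 2 (0.0717) and with the length offset (0.140), the range being 0.0201 to 0.231. PIK3CA shares 35.8% of its exonic bases with KCNMB3 on the opposite strand, whose log2 fold change was 0.22, so its counts are uncertain.

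PRKCI, an atypical protein kinase C that acts in cell polarity, stood at 16.7, 18.2 and 14.8 TPM with cisplatin and 15.4, 36.8 and 22.2 TPM with PBS. The groups overlapped, and PBS library 2 stood apart in TPM only, where its estimated transcript length was 2350 bases against 4153 to 4811 bases in the other libraries. In CPM the means were 70.2 ± 6.06 with cisplatin and 69.8 ± 3.72 with PBS (SD, n = 3 each), with a log2 fold change of 0.00 ± 0.09 (SE; adjusted p = 0.974 in edgeR). The 95% interval of the fold change was 0.883 to 1.14. DVL3, a Wnt signal transducer, TNIK, a Wnt-linked kinase, GNB4 and GPR160, an orphan receptor, had log2 fold changes from -0.01 to 0.19, and none passed (adjusted p = 0.481 to 0.975, edgeR). TNIK passed with the length offset (adjusted p = 0.00653, edgeR, over all settings 0.00653 to 0.854).

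RNA binding and translation genes were the most abundant role, with a median PBS level of 177 TPM, and 2 of 6 fell, none rose and 4 did not pass. EIF4G1, the scaffold of the cap-binding translation initiation complex, stood at 234, 247 and 252 TPM with cisplatin and 301, 256 and 343 TPM with PBS, with no overlap. In CPM it averaged 692 ± 12.0 with cisplatin and 878 ± 94.6 with PBS (SD, n = 3 each), a log2 fold change of -0.34 ± 0.08 (SE; adjusted p = 0.00709 in edgeR). On log2 TPM with limma the adjusted p was at most 0.0901, with a range over the settings of 2.7e-04 to 0.0901. TRA2B, a splicing factor of the SR-like family, stood at 170, 171 and 161 TPM with cisplatin and 215, 204 and 238 TPM with PBS. Its groups did not overlap, and it fell by 0.39 ± 0.09 on the log2 scale (SE; adjusted p = 0.00363 in edgeR).

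FXR1, an RNA-binding protein of the FMR1 family, stood at 253, 241 and 247 TPM with cisplatin and 225, 244 and 285 TPM with PBS. Its PBS libraries ran on both sides of the cisplatin ones, and its log2 fold change was 0.09 ± 0.07 (SE; adjusted p = 0.347 in edgeR), with a 95% interval of the fold change of 0.954 to 1.19. IGF2BP2, an mRNA-binding protein, stood at 2.92, 2.65 and 2.80 TPM with cisplatin and 3.83, 3.23 and 4.27 TPM with PBS. These groups did not overlap in TPM but did in CPM, where its log2 fold change was -0.20 ± 0.14 (SE; adjusted p = 0.275 in edgeR). EIF2B5, a subunit of the eIF2B exchange factor, and TTC14, a tetratricopeptide repeat protein, had log2 fold changes of -0.06 and 0.16 (adjusted p = 0.571 and 0.312, edgeR). TTC14 passed without PBS library 2 (adjusted p = 0.0249, edgeR, over all settings 0.0249 to 0.938).

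Of 8 genes of the secretory pathway, membranes and adhesion, 3 fell, none rose and 5 did not pass. ATP11B, a phospholipid flippase, stood at 12.2, 13.4 and 12.9 TPM with cisplatin and 14.6, 19.1 and 18.7 TPM with PBS, with no overlap. In CPM it averaged 49.5 ± 2.20 with cisplatin and 68.7 ± 10.4 with PBS (SD, n = 3 each), a log2 fold change of -0.48 ± 0.10 (SE; adjusted p = 0.00361 in edgeR). On log2 TPM with limma the adjusted p was at most 0.0681, with a range over the settings of 1.9e-05 to 0.0681.

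LPP, a focal adhesion protein of the zyxin family, stood at 4.93, 4.35 and 4.53 TPM with cisplatin and 6.26, 6.67 and 8.47 TPM with PBS. The groups did not overlap, and the log2 fold change was -0.25 ± 0.09 (SE; adjusted p = 0.0438 in edgeR). The call was lost without cisplatin library 1 (adjusted p = 0.130, edgeR), cisplatin library 2 (0.0913), cisplatin library 3 (0.0902) or PBS library 2 (0.143), with total count scaling (0.0558) and with DESeq2 (0.0566). With transcript length as an offset the direction turned, to a log2 fold change of 0.22 (adjusted p = 0.0347, edgeR), and the range over the settings was 0.0342 to 0.143. Its estimated transcript length averaged 14882 bases with cisplatin and 12244 bases with PBS. The offset rests on mean length over the libraries, so it does not correct for this difference.

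FNDC3B, a membrane protein with fibronectin type III domains, stood at 16.7, 22.8 and 18.2 TPM with cisplatin and 17.9, 15.6 and 18.1 TPM with PBS. In TPM the groups overlapped, while in CPM the means were 46.7 ± 1.53 with cisplatin and 54.9 ± 3.97 with PBS (SD, n = 3 each) with no overlap. The log2 fold change was -0.23 ± 0.08 (SE; adjusted p = 0.0421 in edgeR), but on log2 TPM with limma it turned to 0.15. The call was lost without cisplatin library 1 (adjusted p = 0.117, edgeR), cisplatin library 2 (0.135), cisplatin library 3 (0.0662), PBS library 2 (0.0975) or PBS library 3 (0.0991), and the range was 0.0279 to 0.494. Its estimated transcript length averaged 2874 bases with cisplatin and 3840 bases with PBS. SEC62, a component of the protein import channel of the endoplasmic reticulum, AP2M1, ALG3, a mannosyltransferase of N-glycan assembly, CLCN2 and LAMP3 had log2 fold changes from -0.44 to 0.12 and did not pass (adjusted p = 0.308 to 0.799, edgeR). SEC62 passed without PBS library 2 (adjusted p = 0.0339, edgeR, over all settings 0.0339 to 0.784).

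Among 4 mitochondrial genes, 1 rose and 3 did not pass. MCCC1, the biotin-bearing subunit of the carboxylase that breaks down leucine, stood at 28.3, 24.2 and 30.6 TPM with cisplatin and 20.8, 21.9 and 22.4 TPM with PBS, with no overlap. Its log2 fold change was 0.24 ± 0.08 (SE; adjusted p = 0.0363 in edgeR). The call was lost without cisplatin library 1 (adjusted p = 0.106, edgeR), cisplatin library 3 (0.124), PBS library 2 (0.0514) or PBS library 3 (0.0972) and with DESeq2 (0.0809), in a range of 0.028 to 0.124. MFN1, an outer membrane fusion GTPase, stood at 22.9, 24.2 and 23.8 TPM with cisplatin and 28.5, 28.6 and 35.3 TPM with PBS, but its log2 fold change of -0.16 ± 0.07 did not pass (SE; adjusted p = 0.0943 in edgeR). DNAJC19, a cochaperone of the inner membrane import motor, and PARL, an inner membrane rhomboid protease, had log2 fold changes of 0.09 and 0.04 (adjusted p = 0.439 and 0.663, edgeR). PARL shares 47.2% of its exonic bases with an unnamed gene on the same strand and is uncertain. That gene had 0 counts in every cisplatin library and 14, 30 and 21 counts in the PBS libraries.

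Of 3 genes of the ubiquitin-like modifier systems, 1 rose. KLHL24, a substrate adaptor for a cullin-3 ubiquitin ligase, stood at 11.6, 9.86 and 13.0 TPM with cisplatin and 11.1, 10.3 and 11.4 TPM with PBS. The groups overlapped in TPM, whereas in CPM they did not, with means of 37.7 ± 2.98 for cisplatin and 29.9 ± 3.91 for PBS (SD, n = 3 each) and a log2 fold change of 0.32 ± 0.11 (SE; adjusted p = 0.0313 in edgeR). The call was lost without cisplatin library 1 (adjusted p = 0.0672, edgeR), cisplatin library 2 (0.109), PBS library 1 (0.102) or PBS library 3 (0.0953), in a range of 0.0071 to 0.799, whose upper end came from log2 TPM. Its estimated transcript length averaged 3768 bases with cisplatin and 3323 bases with PBS. DCUN1D1, which promotes the neddylation of cullins, stood at 29.4, 24.6 and 24.4 TPM with cisplatin and 24.7, 27.8 and 28.6 TPM with PBS, with a log2 fold change of 0.10 ± 0.11 (SE; adjusted p = 0.523 in edgeR). Its groups overlapped, and the 95% interval of the fold change was 0.902 to 1.27. SENP2, a SUMO protease, had a log2 fold change of -0.04 ± 0.07 (SE; adjusted p = 0.68 in edgeR). In CPM its groups overlapped, but in TPM they did not, at 33.4, 28.8 and 31.7 with cisplatin and 35.2, 39.9 and 46.6 with PBS. The estimated transcript length of SENP2 averaged 3725 bases with cisplatin and 3206 bases with PBS. Over the settings its adjusted p ran from 0.0732 to 0.921.

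Of the 15 calls, EPHB3, PHC3, TBL1XR1, ZNF639, ACTL6A and TRA2B held under all 15 alternative settings. ATP11B, EIF4G1 and BCL6 were lost on log2 TPM only. POLR2H, MCCC1, KLHL24 and PIK3CA were lost on log2 TPM as well as without the libraries named above. MCCC1 was also lost with no low-count filter (adjusted p = 0.0819, edgeR) and with the length offset (0.0898). FNDC3B was also lost with total count scaling (adjusted p = 0.0662, edgeR), no low-count filter (0.0889), the length offset (0.145) and DESeq2 (0.0752). Of the 22 genes not called, 17 were called by no setting.

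**Figure D3:**
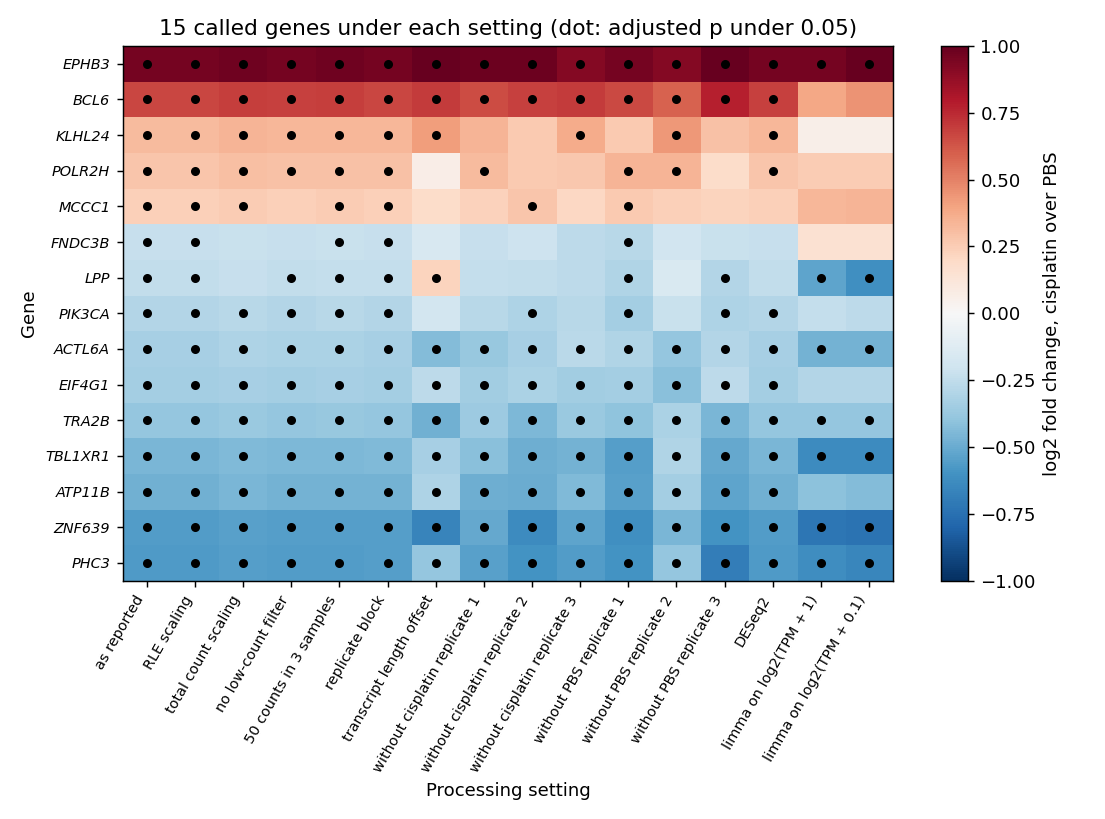
Log2 fold change of cisplatin over PBS for the 15 called genes (rows) as reported and under each processing setting (columns), with a dot where the adjusted p was under 0.05. The rows of EPHB3, PHC3, TBL1XR1, ZNF639, ACTL6A and TRA2B carry a dot in every column, while FNDC3B and LPP change sign in some.

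Consecutive tested genes of the list, which can have other genes between them and lie up to 4618 kb apart (FNDC3B and TBL1XR1), formed 36 pairs. The median absolute difference in log2 fold change was 0.30 within these pairs, against 0.28 over all 666 pairs of listed genes. The 5 listed genes called higher all start on the telomeric side of SOX2, while those called lower lie on both sides. This split was seen in the values and was not tested.

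The interval holds 317 further genes, SOX2 included, of which 60 were tested. Of these 60, 43 are protein-coding, as are all 37 tested genes of the list. Among the 60, 16 rose and 8 fell (40.0%, against 38.2% of all tested genes), and their median change was 0.03 on the log2 scale. Both called and changed at least 1.5-fold were 15 (25.0%, against 15.0% of all tested genes and 5.41% of the list). The sets differ in level, with a median PBS level of 18.3 TPM for these protein-coding genes and 29.9 TPM for the tested listed genes. With a filter of 50 counts in 3 libraries, 11 interval genes outside the list rose and 5 fell, while the list kept 5 and 10. The part of level in this contrast was not tested. Named next are called protein-coding genes averaging at least 5 CPM, and some other interval genes changed more. TNFSF10, the death receptor ligand TRAIL, stood at 17.3, 15.6 and 19.4 TPM with cisplatin and 9.17, 9.40 and 10.5 TPM with PBS, a log2 fold change of 1.06 (adjusted p = 1.1e-04, edgeR). CLDN11, a tight junction protein, and PLD1, a phospholipase, rose by 0.90 and 0.83 on the log2 scale (adjusted p = 2.6e-04 and 0.00122, edgeR). The PLD1 groups overlapped in TPM, and its call was lost on log2 TPM (limma adjusted p = 0.0878 and 0.0927, over the settings 6.0e-06 to 0.0927). ZMAT3, an RNA-binding protein encoded by a p53 target gene, stood at 1.87, 0.97 and 1.21 TPM with cisplatin and 2.5, 2.52 and 2.26 TPM with PBS, a log2 fold change of -0.71 (adjusted p = 0.0015, edgeR). On log2(TPM + 0.1) with limma the adjusted p of ZMAT3 was 0.0528, the highest over the settings, whose lowest was 1.8e-05. FAM131A, which shares 23.6% of its exonic bases with CLCN2 and is uncertain, and EIF5A2, a translation factor paralog, each had a log2 fold change of -0.45 (adjusted p = 0.0024 and 0.0314, edgeR). The EIF5A2 call was lost without cisplatin library 1 (adjusted p = 0.126, edgeR), cisplatin library 3 (0.0754), PBS library 2 (0.106) or PBS library 3 (0.0727), in a range over the settings of 0.00701 to 0.126. On the rest of chromosome 3, 130 of 738 tested genes rose and 141 fell (36.7%), with a median of -0.02.

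**Figure D4:**
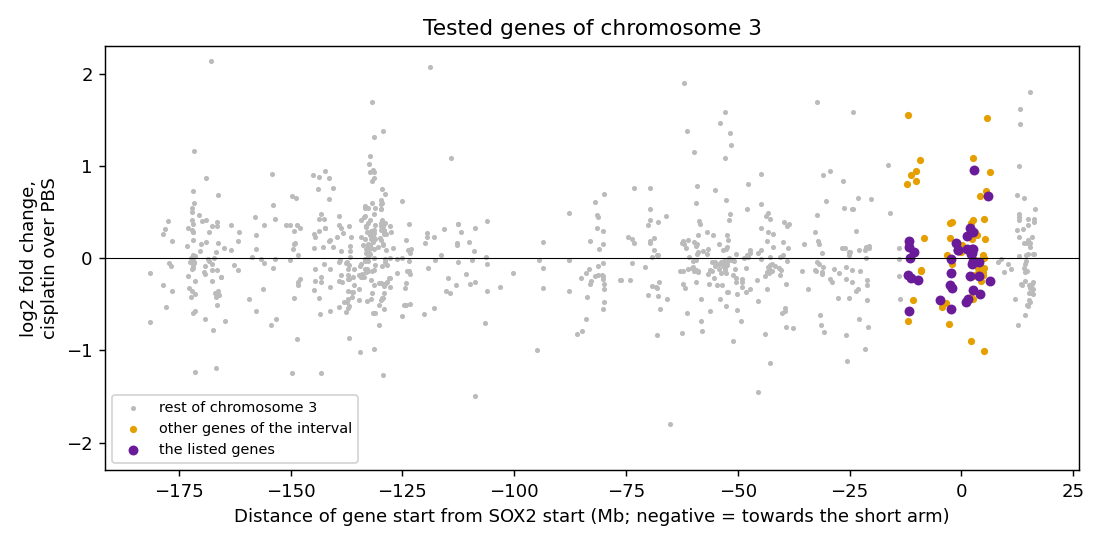
Log2 fold change of cisplatin over PBS for tested genes of chromosome 3 against the distance of their start from the SOX2 start in Mb, with the listed genes in purple, other genes of the interval in orange and the rest in grey (genes beyond the axis not drawn). Listed genes on both sides of SOX2 lie above and below 0, among unlisted neighbours such as TNFSF10 at 1.06 and ZMAT3 at -0.71.

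Partners of the 38 genes elsewhere in the genome, such as paralogs and subunits of the same complexes, were 93 listed genes, of which 90 were tested. Of these, 12 rose and 26 fell (42.2%, against 38.2% of all tested genes), and their median change was -0.06 on the log2 scale. Counts for the partners of a single gene rest on few genes and were not tested. Of these 38 calls, 8 held under all 15 alternative settings, 28 were lost on log2 TPM and 13 without at least 1 library. The 8 that held are given first, as log2 fold changes.

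Of 4 tested partners of EIF4G1, 3 fell, among them the cap-binding protein EIF4E (-0.39) and the paralog EIF4G2 (-0.50), which held. Of 5 partners of ACTL6A, only the BAF ATPase SMARCA4 was called, and it fell (-0.37). Of 5 partners of TBL1XR1, 3 fell and 1 rose, and the call that held was the increase of HDAC3, the deacetylase of the NCOR complexes (0.40). FXR1, which was not called itself, has 2 tested paralogs, of which FMR1 fell (-0.47). DNAJC19, also not called, has 4 tested partners, of which the mitochondrial import proteins HSPA9 and TIMM44 fell (-0.28 and -0.39). Of 2 partners of PARL, the kinase PINK1, which PARL cleaves, rose (0.45), but it shares 39.4% of its exonic bases with PINK1-AS and is uncertain.

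Other partners with small adjusted p lost their calls on log2 TPM with limma. ATP11A, a flippase related to ATP11B, had a log2 fold change of -0.63 in edgeR, but overlapping groups in TPM and a limma adjusted p of 0.329 and 0.336 (over the settings 3.8e-06 to 0.336). CUL3, a cullin that DCUN1D1 acts on, had -0.45, overlapping groups in TPM and a limma adjusted p of 0.287 (2.1e-05 to 0.287). ZYX, a focal adhesion protein related to LPP, had 0.56 and a limma adjusted p of 0.0546 and 0.0542 (2.0e-06 to 0.0546). PIK3R3, a regulatory subunit that binds PIK3CA, had 0.46 and a limma adjusted p of 0.105 and 0.101 (2.4e-05 to 0.105). The only tested partner of BCL6, its corepressor BCOR, had -0.47 while BCL6 rose, and a limma adjusted p of 0.596 (2.2e-05 to 0.596). Partners of POLR2H, EPHB3 and MCCC1 gave no call.

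Over the whole data set, genes that fell had longer transcripts than genes that rose, and the listed genes were placed beside this. Median transcript length was 2782 bases for the 5 listed genes that rose, 3607 for the 10 that fell and 2837 for the 22 not called. Over all genes it was 1775 bases for those that rose and 3557 for those that fell. Between log length and log2 fold change, Pearson's r was -0.22 and Spearman's rho -0.31 across the 37 genes, against -0.27 and -0.35 across all 15063. These are correlations across genes, which share the same libraries and are not independent replicates. The part of length in the listed changes was not tested.

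**Figure D5:**
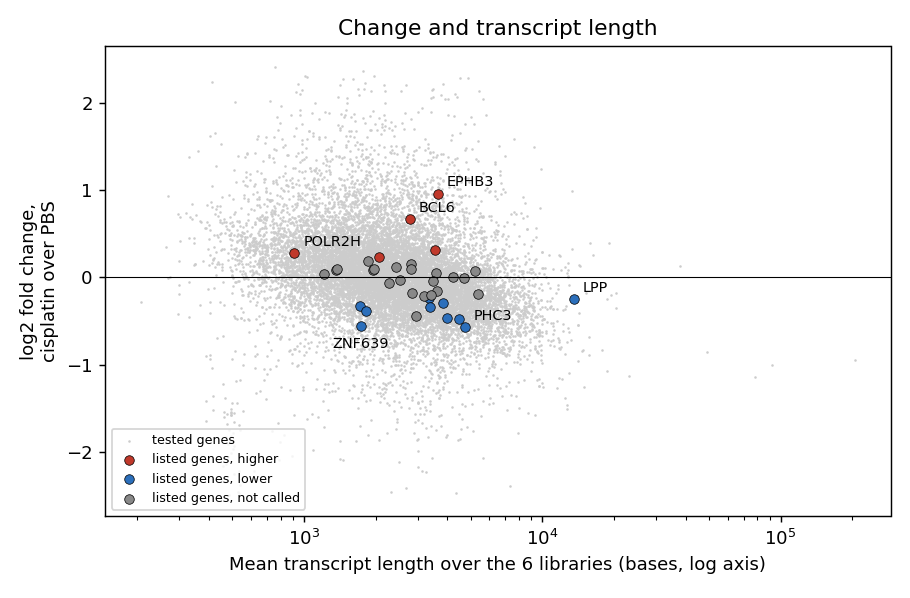
Log2 fold change of cisplatin over PBS against mean transcript length in bases, on a log axis, for the listed genes (coloured by call) over all tested genes (small grey points, those beyond the axes not drawn). EPHB3 at 0.96 and BCL6 at 0.67 lie above the bulk of genes of their length, and LPP, with the longest estimated transcript of the list at 13563 bases, lies at -0.25.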

How the data were processed

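Total RNA of the 6 samples was sequenced, and the authors deposited 1 table per sample with expected counts, TPM, FPKM and transcript lengths per gene, per the file headers, which are those of RSEM. Neither library size nor length enters the deposited expected counts. FPKM, also deposited by the authors, went unused. Alignment was with STAR 2.7.9 to hg38, per the submitters' processing notes. For the quantifier's version, annotation release and use of strand, the status is not given in the sources used here, so overlapping genes on opposite strands cannot be told apart.

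After rounding to whole counts, edgeR 4.0.16 (R 4.3.3) was run: filterByExpr with a minimum of 10 and a total of 15, TMM scaling, a quasi-likelihood test with group as the sole term, and Benjamini-Hochberg adjustment over 15063 genes, with calls under 0.05. The standard error is the log2 fold change over the square root of F, and 95% intervals rest on it. CPM are scaled by TMM. TPM serves for levels between genes. The procedure was tested on simulated counts with 200 changed genes. It recovered 53.7% of 1.5-fold, 83.6% of 2-fold and 98.5% of 4-fold changes, and 5.99% of its calls were false. In the data 38.2% of tested genes were called, a far larger share than was simulated. The simulated spread of each gene also followed a common trend, so these rates need not hold for the data. A gene that did not pass can still have changed by a small amount.

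The rule for the member genes uses no measured value, but the members and lists were chosen with earlier results of these data known. Named are the 5 most abundant genes, up to 6 largest changes in each direction, 11 genes set by name, and up to 3 interval genes and 3 partner genes in each direction. TRIM29, KRT6A, NKX2-1, LYZ, BCOR and the partners whose calls held under all settings were named after their values were seen. Some partners that changed are not reported here. Exon overlaps of 10% or more with a tested gene are marked uncertain (GENCODE 29). Alternatives were other scalings, filters, a replicate block, a transcript length offset, leaving out each library, DESeq2 1.42.0 and limma 3.58.1 on log2(TPM + 1) or log2(TPM + 0.1). The length offset removes each library's smoothed trend of log2 CPM with transcript length across genes. That length is a gene's mean over the libraries, not its length in each library.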

Additional observations from a re-analysis of the deposited data

How the results depend on the processing

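Leaving out 1 library at a time, the listed genes gave 2 to 6 higher and 7 to 10 lower calls, the other interval genes 4 to 6 lower calls, and the partners 6 to 13 higher calls. With limma on log2(TPM + 1) or log2(TPM + 0.1), 1 listed gene was higher and 7 were lower under each. Over all genes 1208 or 1186 were higher and 1653 or 1629 lower. The median log2 fold change was -0.134 for the listed genes under each, and -0.071 or -0.086 for all tested genes. For the other interval genes it was -0.107 or -0.122, and for the partners -0.133 or -0.143. The same settings gave 8 or 9 higher interval genes (5 lower with 0.1), 57 and 57 higher and 79 or 84 lower genes on the rest of chromosome 3, and 2 higher and 9 lower partners. The filter of 50 counts left 5 lower interval genes. FNDC3B turned to 0.15 on TPM, and LPP turned to 0.22 with the length offset. The median PBS level of the listed genes was 35.3 TPM over protein-coding nuclear genes, 25.5 CPM per kilobase, and 27.2 to 29.5 TPM with a library left out. The cause of these moves was not tested. With the replicate number as a block, 5 listed genes were higher and 10 lower, as without it. Same-numbered libraries correlated at 0.0658, 0.123 and -0.076 in their deviations, and different-numbered ones at -0.188 to 0.13. With 3 libraries per group, these values cannot decide whether the numbers pair the samples. Low counts limit MECOM and LAMP3.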
